A study of Arabidopsis thaliana with 8 samples.

Results

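The genes described here encode MYB domain transcription factors of Arabidopsis thaliana. They were chosen by description, as loci whose deposited gene description names a myb domain protein, less a short list of loci kept aside. The rule gave 95 of the 25686 loci with reads, out of 107 with such a description. RNA was sequenced along de novo shoot regeneration, in which root explants form callus on an auxin-rich callus-inducing medium (CIM) and then shoots on a cytokinin-rich shoot-inducing medium (SIM). The groups were roots of the wild type Columbia-0 (Col) and Col root explants after 4 days on CIM. Further Col explants had 4 days on CIM and then 2 days or 2 weeks on SIM. The same 4 stages were taken from hag1, which lacks normal function of HAG1, a histone acetyltransferase. Seedlings of both genotypes grew on Murashige and Skoog medium with sucrose under long days. Neither the hag1 allele nor the number of pooled explants is given in the labels, and each of the 8 groups was 1 library. No genotype therefore had a replicate within a stage. Separate cultures are not mentioned in the labels. The spread behind each p-value is what the stage and genotype terms leave over among these libraries. It mixes variation between libraries, which may be technical, with hag1 differences that change by stage.

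MYB proteins bind DNA through repeats of a helix-turn-helix motif. Most plant MYB factors carry a pair of such repeats (R2R3) and act in processes that set plants apart, such as epidermal cell fate, lignin, suberin, wax and phenylpropanoid synthesis, boundaries between organs, and responses to drought, pathogens and nutrients. A small group with an additional repeat, the 3R-MYB factors, controls genes of the G2 and M phases of the cell cycle. Many R2R3 factors act with bHLH partners and in sets of close relatives with overlapping roles, so the genes were grouped by known role into 12 lists that held 84 of the 95, with 11 in no list.

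Libraries held 6.96 to 7.54 times 1e+06 unique reads, so that a gene without reads in a library is bounded by 3 reads, or 0.398 to 0.431 counts per 1e+06 reads (CPM), counting error only. HAG1 itself had 171, 204, 340 and 156 reads from roots to 2 weeks on SIM in Col, and 21, 8, 16 and 13 in hag1. Markers of root hairs, endodermis and quiescent centre had a summed level of 654 reads per kilobase and per 1e+06 reads (RPKM) in Col roots and 301 in hag1 roots, and of 9.88 to 145 in the explants, with COBL9, EXPA7, RSL4, CASP1 and PER64 at 0 to 6 reads in either CIM library. WOX5, the quiescent centre marker, went the other way, with 27, 377, 670 and 6 reads in Col against 15, 86, 10 and 1 in hag1. Green shoot markers summed to 906 RPKM in Col and 400 in hag1 after 2 weeks on SIM and to 23.0 to 161 in the other libraries. Of the anther and pollen markers, VGD1 was at 0 in all libraries, A9 at 2 reads or fewer and PGA4 at 1 read or fewer. QRT3 had 1, 8, 5 and 2 reads in Col against 2, 25, 8 and 1 in hag1, with CIM highest in both genotypes.

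Reads of MYB genes made up 0.156% of the hag1 root library, 0.166% of the Col root library and 0.229% of the Col libraries on CIM and after 2 days on SIM. Between 74 and 83 of the 95 genes had reads in a library, and 60 had reads in all 8. In its highest library 20 genes had fewer than 10 reads, 24 had 10 to 49 and 51 had at least 50. Per length, MYB44 stood at 130 to 307 RPKM, and in the Col libraries on CIM and after 2 days on SIM it was below MYB94 (150 and 256 RPKM), MYB30 (188 and 216) and MYB73 (159 and 204). The 11 genes with more than 1 transcript model had low unique coverage (median 6.6% of the model, against 48.9% for the 84 others), and their counts, among them those of MYB15, MYB33, MYB59, MYB88 and MYB3R-4, may miss reads that models share. A low-count filter left 58 of the 95 genes in the tests, and 36 of the 37 left out had fewer than 50 reads in every library.

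The first comparison asked how MYB genes changed when roots were put on CIM. MYB62, MYB94, MYB30, MYB107, MYB3R-4, MYB109, MYB13 and MYB63 rose, and MYB86, MYB59, WER, MYB74, MYB92 and MYB7 fell (edgeR quasi-likelihood test, adjusted p under 0.05 over all genes). These were 8 of the 58 tested genes higher (13.8%) and 6 lower (10.3%), beside 12.5% and 15.4% of all 16825 genes tested, so the shares were near those of all genes. The risers include regulators of wax, suberin, lignin and mitotic genes. The fallers include WER, the factor of non-hair root epidermis, and also MYB92 and MYB74 of the suberin list and MYB86 of the secondary wall list. In whole tissue, fewer cells of a type and less RNA per cell cannot be told apart. The count of 14 calls was 6 without the Col root library and 7 without the Col CIM library. The DESeq2 Wald test called 17 of the 58, beside 30.3% of all genes.

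The change from CIM to 2 days on SIM gave no call among the 58 genes, where 0.0654% of all genes rose and 0% fell. At an unadjusted p under 0.05, 2 MYB genes were higher and 13 lower in edgeR, beside 4.67% and 6% of all genes. The DESeq2 Wald test called MYB63 higher and RAX3 lower, and 3.11% of all genes in either direction. The median log2 change of the 58 genes was -0.33, against 0.01 over all genes.

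Between 2 days and 2 weeks on SIM, MYB59, MYB44 and MYB4 rose, and MYB94, MYB62, MYB39, MYB25, MYB30, MYB77 and MYB109 fell (edgeR). These were 5.17% of the 58 genes higher and 12.1% lower, beside 7.07% and 4.78% of all genes. The count of 10 calls was 0 without the Col library after 2 days on SIM, 1 without either library after 2 weeks on SIM, and 4 without the hag1 library after 2 days on SIM. The DESeq2 Wald test called 17 of the 58, beside 18.1% of all genes, and an edgeR fit with no genotype term called 3, beside 6.04%.

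Against roots, explants after 2 weeks on SIM had higher MYB14, MYB63, MYB13, MYB30 and MYB4 and lower MYB74, WER, MYB39, MYB61, MYB77, MYB15, MYB6, MYB88, MYB73 and MYB3 (edgeR). These were 8.62% of the 58 genes higher and 17.2% lower, beside 11.3% and 13.6% of all genes, and the median log2 change was -0.65 against 0.03. The count of 15 calls was 8 without either root library and 9 without the hag1 library after 2 weeks on SIM. The DESeq2 Wald test called 21 of the 58, beside 27.8% of all genes. The comparisons share libraries, since roots serve in 2 of them and each explant stage in 2, so their calls are not independent of each other.

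**Figure D1:**
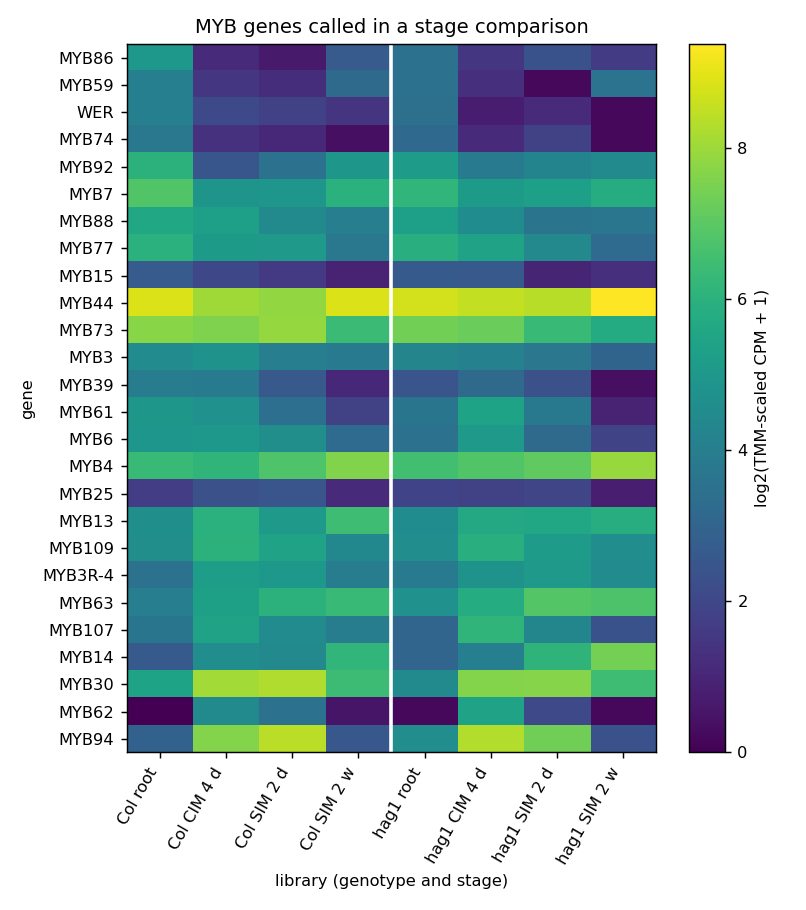
Level of each of the 26 MYB genes called in at least 1 stage comparison (vertical axis), as log2(TMM-scaled CPM + 1), in each of the 8 libraries (horizontal axis, Col left and hag1 right of the white line). MYB94 and MYB30 stand out in the libraries on CIM and after 2 days on SIM, MYB86 and WER in the root libraries, and MYB44 is high throughout.

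The cuticle list held MYB94 and MYB30, which reached 256 and 216 RPKM in Col after 2 days on SIM. MYB94, an activator of cuticular wax synthesis (AT3G47600, chromosome 3, 17539338 to 17541230 in TAIR10), had, from roots to 2 weeks on SIM, 43, 1573, 2812 and 33 reads in Col against 162, 2297, 1185 and 28 in hag1. Both CIM libraries and both libraries after 2 days on SIM were above all root and 2-week libraries. The step onto CIM was 31.0-fold in Col (95% interval of the ratio 22.9 to 43.0, counting error only) and 13.7-fold in hag1 (11.7 to 16.1). In the test shared by genotypes MYB94 rose on CIM by 4.16 on the log2 scale (SE 0.69, edgeR adjusted p = 0.0108) and fell between 2 days and 2 weeks on SIM with -5.83 (SE 0.77, edgeR adjusted p = 0.0135). The first call was lost without the hag1 CIM library (adjusted p = 0.0501) and the second without the Col library after 2 days or either library after 2 weeks on SIM (up to 0.0720).

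MYB30, a factor of pathogen-induced cell death and of very-long-chain fatty acid synthesis (AT3G28910, chromosome 3, 10911157 to 10913190), had 279, 2122, 2545 and 578 reads in Col against 151, 1443, 1498 and 599 in hag1. It was high in the same 4 libraries as MYB94, but its 2-week libraries were above both root libraries. Its log2 change on CIM was 2.92 (SE 0.27, edgeR adjusted p = 0.00248), a call kept without any 1 library. It then fell with -1.50 (SE 0.25, edgeR adjusted p = 0.0230) between 2 days and 2 weeks on SIM and stayed above roots with 1.53 (SE 0.26, edgeR adjusted p = 0.0141). The fall was not called without the Col library of either SIM stage or the hag1 library after 2 days on SIM (up to 0.142), and the last call was lost without the hag1 library of roots or of 2 weeks on SIM (up to 0.0574).

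Their relatives in the list had fewer unique reads, and the count of MYB96 may miss reads that models share. MYB96, which links drought to wax synthesis, had 5, 63, 91 and 1 reads in Col against 15, 46, 10 and 1 in hag1, and MYB31 had 9, 119, 78 and 16 in Col against 8, 13, 24 and 15 in hag1. Neither was called by edgeR in a stage comparison (log2 change on CIM 2.20, SE 0.93, for MYB96 and 2.40, SE 0.79, for MYB31, adjusted p = 0.129 and 0.0717). The DESeq2 Wald test called MYB31 higher on CIM than in roots (0.0335) and MYB96 lower after 2 weeks than after 2 days on SIM (0.00341). MYB60, a guard cell factor, and MYB16, MYB106 and MYB17, of the group of MIXTA-like epidermal regulators and relatives, did not pass the filter, with at most 13 reads in a library. Thus 2 of the 4 tested genes of the list rose on CIM, beside 12.5% of all genes. The same pair, MYB94 and MYB30, fell between 2 days and 2 weeks on SIM, beside 4.78% of all genes.

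MYB62, a regulator in the response to low phosphate (AT1G68320, chromosome 1, 25603842 to 25605096), was almost unread in roots. From roots to 2 weeks on SIM it had 0, 163, 85 and 3 reads in Col against 1, 300, 23 and 1 in hag1. The CIM libraries were above all others, and the Col step onto CIM was at least 46.0-fold, bounded with 3 reads in the root library. In hag1 the same step was 289-fold on 1 root read, with an interval of 51.6 to 1.15e+04. MYB62 rose on CIM (edgeR adjusted p = 0.00603) and fell between 2 days and 2 weeks on SIM (log2 change -4.39, SE 0.99, edgeR adjusted p = 0.0445). The rise was called without any 1 library, and the fall was lost without any of 5 libraries, namely both root libraries, both Col SIM libraries and the hag1 library after 2 weeks (adjusted p up to 0.187).

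To show what lies in front of genes that moved on CIM, the 250 bases upstream of the annotated start are shown for 5 that rose, 1 from each of the stress and nutrient, suberin and cell cycle lists and the cuticle pair, and for WER, which fell. They were read from the RefSeq TAIR10.1 genome, whose gene positions overlap those of the files for 30354 of 30367 models (99.96%). Sequences run 5′ to 3′ toward the gene. Capitals mark, on either strand, TGTCTC (the auxin response element), ACCNACC (the AC element of lignin genes) or AACGG (the core of the mitosis-specific activator element bound by 3R-MYB factors).

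MYB62, chr1:25603592-25603841, forward strand: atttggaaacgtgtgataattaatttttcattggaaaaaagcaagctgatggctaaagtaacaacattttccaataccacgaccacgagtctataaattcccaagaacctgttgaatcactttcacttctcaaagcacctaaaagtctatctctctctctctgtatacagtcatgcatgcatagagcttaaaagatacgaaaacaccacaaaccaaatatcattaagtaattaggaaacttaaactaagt

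MYB94, chr3:17541231-17541480, reverse strand: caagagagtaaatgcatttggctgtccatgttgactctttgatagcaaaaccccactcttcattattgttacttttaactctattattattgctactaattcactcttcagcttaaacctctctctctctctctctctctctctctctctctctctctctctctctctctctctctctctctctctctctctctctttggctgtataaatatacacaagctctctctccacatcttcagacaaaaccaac

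MYB30, chr3:10910907-10911156, forward strand: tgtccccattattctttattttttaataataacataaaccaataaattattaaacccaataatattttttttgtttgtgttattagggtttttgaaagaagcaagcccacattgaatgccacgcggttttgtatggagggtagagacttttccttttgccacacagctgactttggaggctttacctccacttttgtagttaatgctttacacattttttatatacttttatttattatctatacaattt

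MYB107, chr3:661623-661872, forward strand: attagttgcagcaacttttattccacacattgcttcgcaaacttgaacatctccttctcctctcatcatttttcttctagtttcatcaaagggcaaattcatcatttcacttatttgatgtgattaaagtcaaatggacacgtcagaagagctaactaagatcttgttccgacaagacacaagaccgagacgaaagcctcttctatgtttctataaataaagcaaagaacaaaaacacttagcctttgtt

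MYB3R-4, chr5:3679558-3679807, forward strand: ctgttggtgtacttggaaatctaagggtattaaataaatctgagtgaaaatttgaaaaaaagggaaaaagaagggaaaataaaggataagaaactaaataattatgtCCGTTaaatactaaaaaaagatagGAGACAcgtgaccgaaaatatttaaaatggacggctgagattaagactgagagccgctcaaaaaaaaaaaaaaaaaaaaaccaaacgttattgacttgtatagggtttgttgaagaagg

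WER, chr5:4764739-4764988, reverse strand: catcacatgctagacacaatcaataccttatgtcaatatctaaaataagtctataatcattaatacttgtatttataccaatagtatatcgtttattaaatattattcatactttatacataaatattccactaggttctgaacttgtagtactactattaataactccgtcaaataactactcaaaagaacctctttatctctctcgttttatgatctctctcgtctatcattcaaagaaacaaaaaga

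Among these windows only that of MYB3R-4 held a searched motif, an AACGG match at -143 and a TGTCTC match at -119, both on the opposite strand and not overlapping. Over the 8 genes that rose on CIM, 1 window held TGTCTC, 0 held ACCNACC and 1 held AACGG, and over all 95 genes 13 (13.7%), 8 (8.42%) and 21 (22.1%) did. The same letters were in 12.5%, 6.94% and 22.6% of 25535 upstream windows of the genome. The MYB94 window held a CT repeat of 78 bases, and 5 of the 25535 windows had a CT or GA repeat at least as long.

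**Figure D2:**
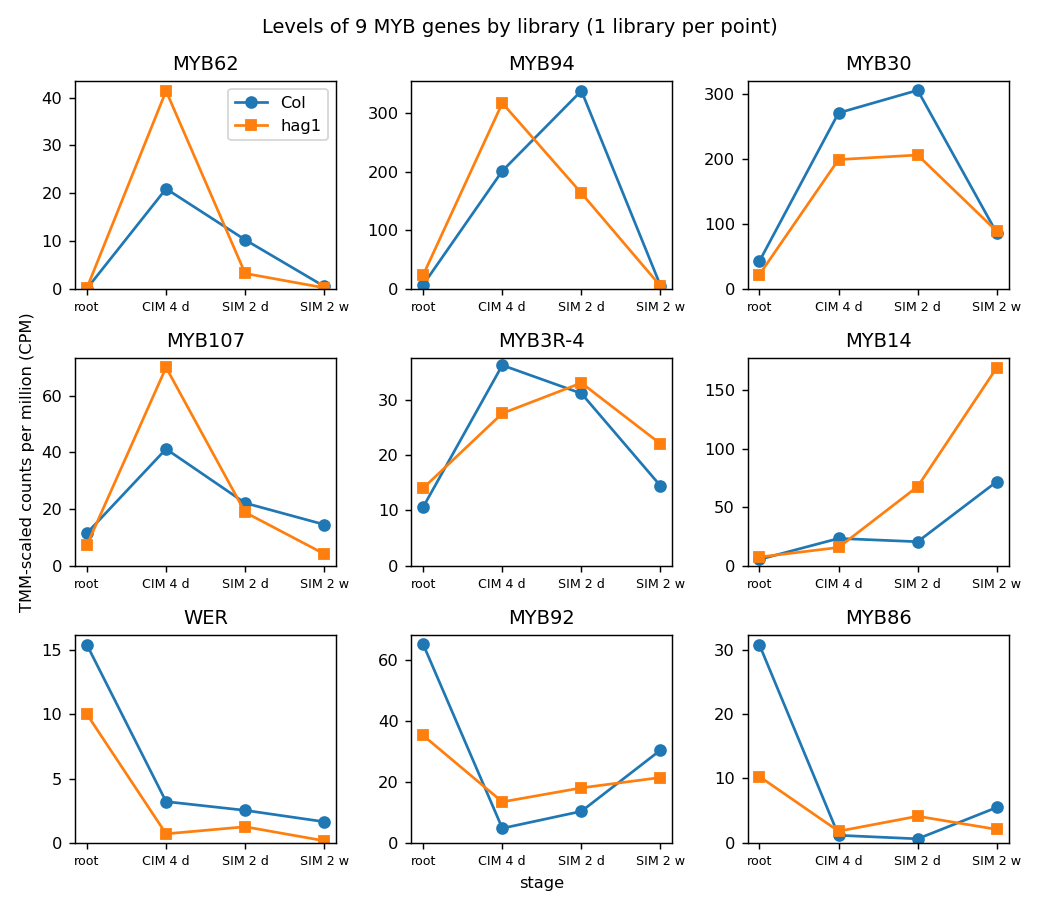
TMM-scaled CPM (vertical axis, from 0, a scale of its own in each panel) of 9 MYB genes at the 4 stages (horizontal axis), with Col as blue circles and hag1 as orange squares, 1 library per point. MYB62, MYB94, MYB30, MYB107 and MYB3R-4 are higher on CIM than in roots in both genotypes, MYB14 is highest after 2 weeks on SIM, and WER, MYB92 and MYB86 are highest in roots.

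Of the 3R-MYB genes, 3 were in the set. MYB3R-4, an activator of mitotic genes (AT5G11510, chromosome 5, 3679808 to 3684877), had 70, 283, 259 and 97 reads in Col against 98, 199, 240 and 149 in hag1. The libraries on CIM and after 2 days on SIM were above those of roots and 2 weeks in both genotypes. It rose on CIM by 1.39 on the log2 scale (SE 0.29, edgeR adjusted p = 0.0200), a call lost without either root library or the Col CIM library (up to 0.114). The repressors MYB3R-3 and MYB3R-5 had at most 6 and 4 unique reads in any library and were not tested. These counts may miss reads that transcript models share, so a low level of either gene cannot be read from them. MYB3R1, a relative outside the set with another description, had 113, 301, 388 and 171 reads in Col against 172, 309, 358 and 173 in hag1 and also rose (0.97, SE 0.20, edgeR adjusted p = 0.0189). Of 11 genes of the G2 and M phases, 2 rose on CIM, the kinesin gene HIK (1.31, SE 0.21, edgeR adjusted p = 0.00989) and CDKB2;2 (0.76, SE 0.22, edgeR adjusted p = 0.0478), and none fell. The median log2 change of the 11 was 0.67 on CIM and -0.72 between 2 days and 2 weeks on SIM, where none was called in either direction.

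In the epidermal fate list WER (WEREWOLF, AT5G14750, chromosome 5, 4763452 to 4764738), which sets the non-hair fate in the root epidermis, had 102, 25, 21 and 11 reads in Col against 70, 5, 9 and 1 in hag1. Root libraries were the highest of each genotype, and every hag1 library was below the Col library of its stage. WER fell on CIM (log2 change -2.92, SE 0.55, edgeR adjusted p = 0.0151) and was lower after 2 weeks on SIM than in roots with -4.05 (SE 0.61, edgeR adjusted p = 0.0113). The first call was lost without the Col CIM, hag1 CIM or hag1 root library (up to 0.0818), and the second was kept without any 1 library.

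MYB23, which acts with WER in the same cells (AT5G40330, chromosome 5, 16127725 to 16129655), had 49, 0, 1 and 3 reads in Col against 28, 1, 2 and 0 in hag1. In Col its level dropped at least 19.3-fold on CIM, with 3 reads as the bound for CIM, and in hag1 it was 29.0-fold lower on 1 read, with an interval of the CIM to root ratio of 0.000843 to 0.208. MYB23 did not pass the low-count filter, which asked for a minimum read level in 4 libraries, and was not tested. MYB5 and MYB82, of seed coat and trichomes, had at most 11 and 7 reads in a library.

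Of 12 partner genes of this pathway, 4 were tested, and GL3, a bHLH partner of WER, fell on CIM (-2.21, SE 0.50, edgeR adjusted p = 0.0254). GL3 had 62, 25, 32 and 8 reads in Col against 32, 3, 8 and 1 in hag1. SCM, CPC and TTG1, also tested, were not called on CIM (edgeR log2 change 0.73, -0.16 and -0.44, SE 0.24, 0.33 and 0.43, adjusted p = 0.0719, 0.733 and 0.468). The CIM libraries held more SCM reads than the root libraries, at 1451 against 599 (Col) and 1027 against 717 (hag1). The median log2 change of the 4 tested partners was -0.3, so the partners did not fall as a set. Among partners not tested, GL2, TRY, ETC1 and TTG2, which act downstream or beside WER, had 4 to 22 reads in root libraries and 0 or 1 in CIM libraries. Root markers also fell on CIM, 5 of 6 in the edgeR test with a median log2 change of -8.89. The part of root cell types in the fall of WER was not tested.

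MYB23 and 5 further genes below the same filter, chosen after their values were seen, were read mainly in roots, as the plot of reads in roots shows, and are described with no test. MYB20, which activates lignin and phenylalanine genes, had 91, 6, 6 and 23 reads in Col against 42, 2, 1 and 4 in hag1. MYB18, known as LAF1 in far-red light signalling, had 39, 0, 0 and 17 in Col against 21, 1, 0 and 0 in hag1, and its relative MYB19 had 46, 0, 0 and 4 in Col against 24, 1, 0 and 0 in hag1. The root libraries were the highest of each genotype for all 3. MYB48 had 47, 3, 0 and 19 reads in Col against 41, 0, 0 and 0 in hag1, on unique reads only. MYB103, a regulator of syringyl lignin, had 30, 6, 6 and 2 in Col against 17, 6, 4 and 0 in hag1, again with roots highest.

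**Figure D3:**
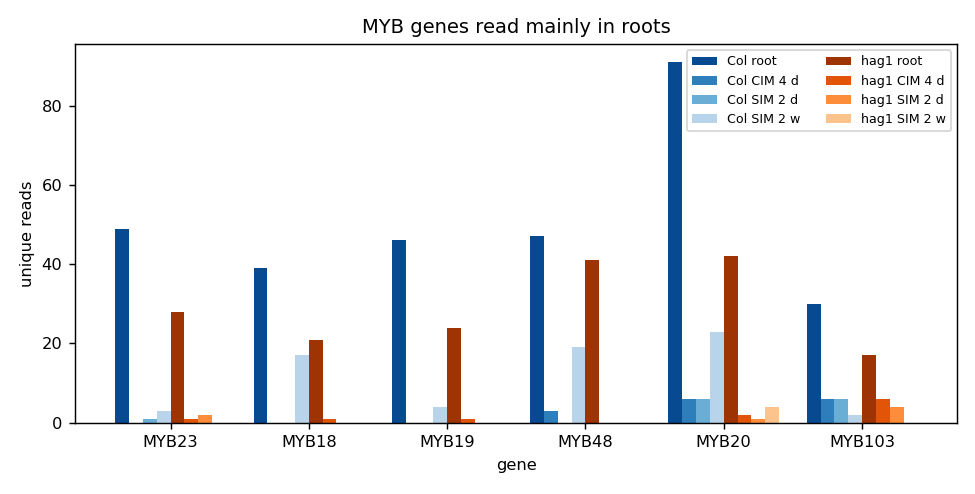
Unique reads (vertical axis) of 6 MYB genes (horizontal axis) in each of the 8 libraries, Col in blue and hag1 in orange shades, darkest for roots. The root bars of MYB23, MYB18, MYB19, MYB48, MYB20 and MYB103 exceed all explant bars of the same genotype.

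The tested genes of the secondary wall list, 10 of 13, did not move one way on CIM, with a median log2 change of 0.46. MYB20, MYB103 and MYB42 of the list did not pass the filter and had fewer reads on CIM than in roots in both genotypes. MYB63, an activator of lignin genes (AT1G79180, chromosome 1, 29786495 to 29787802), had 99, 303, 534 and 538 reads in Col against 178, 398, 853 and 735 in hag1. All explant libraries were above both root libraries, and each hag1 library was above the Col library of its stage. MYB63 rose on CIM (1.24, SE 0.18, edgeR adjusted p = 0.00749) and was higher after 2 weeks on SIM than in roots (2.25, SE 0.18, edgeR adjusted p = 0.00432). The first call was lost without the Col CIM library (0.0519) and the second was kept without any 1 library. Its close relative MYB58 had only 11 to 38 reads in the libraries.

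MYB86, of the same subgroup as MYB61 (AT5G26660, chromosome 5, 9331573 to 9333174), had 204, 9, 5 and 37 reads in Col against 72, 13, 30 and 14 in hag1. It fell on CIM (-3.73, SE 1.04, edgeR adjusted p = 0.0467), a call lost without any of 6 libraries, all but those after 2 days on SIM (up to 0.237). MYB61, which acts in stomatal aperture and wall formation (AT1G09540, chromosome 1, 3086159 to 3087912), had 202, 202, 82 and 17 in Col against 81, 305, 94 and 6 in hag1. It was lower after 2 weeks on SIM than in roots (-3.59, SE 0.69, edgeR adjusted p = 0.0192), which was lost without the Col root library or either 2-week library (up to 0.0886).

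The enzymes and switches of the secondary wall moved together where the tested genes of the MYB list did not. Of 13 such genes 10 were tested and 9 fell on CIM, with a median log2 change of -3.13, and all 10 tested were lower after 2 weeks on SIM than in roots, with a median of -4.27 (edgeR). MYB46, a master switch of the secondary wall outside the set, had 90, 22, 15 and 9 reads in Col against 73, 5, 11 and 9 in hag1, and fell on CIM (-2.84, SE 0.48, edgeR adjusted p = 0.0112). The wall-related genes MYB43, MYB52 and MYB54 had 100 to 189, 52 to 70 and 41 to 61 reads in Col libraries and were not called by edgeR in any stage comparison, while the DESeq2 Wald test called MYB43 lower after 2 weeks on SIM than in roots (-1.55, adjusted p = 0.0433).

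In the suberin list, of 8 genes with 7 tested, 1 rose and 2 fell on CIM. MYB107, an activator of suberin in the seed coat (AT3G02940, chromosome 3, 661873 to 664006), had 76, 322, 184 and 98 reads in Col against 51, 507, 137 and 28 in hag1, with CIM highest in both genotypes. It rose on CIM (2.65, SE 0.59, edgeR adjusted p = 0.0241), lost without either root library or the hag1 CIM library (up to 0.120). MYB92, an activator of suberin in roots (AT5G10280, chromosome 5, 3232569 to 3234210), had 431, 37, 86 and 205 in Col against 246, 97, 131 and 145 in hag1, with roots highest. It fell on CIM (-2.53, SE 0.62, edgeR adjusted p = 0.0325), lost without the Col root or CIM library or either library after 2 days on SIM (up to 0.141).

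MYB74, a salt-responsive relative of the suberin factor MYB41 (AT4G05100, chromosome 4, 2618454 to 2619887), had 82, 12, 9 and 2 reads in Col against 57, 9, 19 and 1 in hag1. It fell on CIM (-2.86, SE 0.51, edgeR adjusted p = 0.0130) and was lower after 2 weeks on SIM than in roots (-5.42, SE 0.68, edgeR adjusted p = 0.00773). The second call was kept without any 1 library, and the first was lost without the Col root library or either CIM library (up to 0.0850). MYB39, which promotes suberin in the endodermis (AT4G17785, chromosome 4, 9881635 to 9883432), had 94, 109, 43 and 7 in Col against 32, 62, 29 and 2 in hag1. It fell between 2 days and 2 weeks on SIM (-2.85, SE 0.51, edgeR adjusted p = 0.0265) and was below roots at 2 weeks (-3.73, SE 0.50, edgeR adjusted p = 0.00881). The latter was kept without any 1 library and the former lost without any library of the SIM stages (up to 0.110). MYB93, a restraint on lateral root formation, had 427, 320, 255 and 313 in Col against 249, 224, 226 and 61 in hag1 and was not called by edgeR.

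The repressors of phenylpropanoid genes (subgroup 4) were all 5 tested and went separate ways. MYB4, a repressor of sinapate synthesis (AT4G38620, chromosome 4, 18053551 to 18054999), had 518, 549, 909 and 1321 reads in Col against 652, 809, 1001 and 1634 in hag1. The 2-week libraries were the highest in both genotypes. It rose between 2 days and 2 weeks on SIM (0.83, SE 0.16, edgeR adjusted p = 0.0326) and was above roots at 2 weeks (1.35, SE 0.17, edgeR adjusted p = 0.00760), the latter kept without any 1 library and the former lost without any library of the SIM stages (up to 0.193).

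MYB7 (AT2G16720, chromosome 2, 7255529 to 7256580), a close relative of MYB4, had 746, 221, 248 and 421 reads in Col against 496, 244, 282 and 377 in hag1, with roots highest. It fell on CIM (-1.56, SE 0.29, edgeR adjusted p = 0.0143), lost without the Col root or CIM library (up to 0.102). MYB6 had 195, 241, 198 and 59 in Col against 71, 234, 62 and 19 in hag1, and MYB3 had 146, 213, 125 and 91 in Col against 129, 119, 89 and 48 in hag1. Both were lower after 2 weeks on SIM than in roots (MYB6 -1.77, SE 0.48, edgeR adjusted p = 0.0466, and MYB3 -1.03, SE 0.26, edgeR adjusted p = 0.0369). Each library left out in turn ended the call of MYB3 (up to 0.208), and 6 of 8, all but the CIM libraries, that of MYB6 (up to 0.211). MYB32 had 50 to 287 reads in the libraries and was not called by edgeR.

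Subgroup 22, whose members act in auxin, abscisic acid and stress responses, was tested in full, with 4 genes. MYB44, a stress-responsive regulator of stomatal closure (AT5G67300, chromosome 5, 26854022 to 26856006), had 3116, 2037, 1910 and 3198 reads in Col against 3020, 2623, 2420 and 4515 in hag1. It rose between 2 days and 2 weeks on SIM (1.03, SE 0.22, edgeR adjusted p = 0.0393), lost without any library of CIM or SIM (up to 0.258). MYB73 (AT4G37260, chromosome 4, 17540490 to 17541799), its relative, had 1390, 1474, 1972 and 560 in Col against 1148, 1083, 571 and 363 in hag1. It was lower after 2 weeks on SIM than in roots (-1.49, SE 0.34, edgeR adjusted p = 0.0290), lost without any library of these stages (up to 0.128). Both genes overlap a protein-coding gene on the other strand, and since use of strand is not given in the sources used here, reads of the pair cannot be told apart.

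MYB77, which acts with auxin response factors in lateral root formation (AT3G50060, chromosome 3, 18557970 to 18559106), had 416, 263, 262 and 85 reads in Col against 415, 302, 148 and 59 in hag1. Root libraries were the highest and 2-week libraries the lowest in both genotypes. It was lower after 2 weeks on SIM than in roots (-2.53, SE 0.29, edgeR adjusted p = 0.00685), a call kept without any 1 library. It also fell between 2 days and 2 weeks on SIM (-1.28, SE 0.28, edgeR adjusted p = 0.0423), lost without any library except those of CIM (up to 0.243).

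Regulators of meristems and boundaries gave no call on CIM, with 5 of 7 tested. MYB68, a root factor, had 588, 821, 766 and 768 reads in Col against 838, 740, 737 and 917 in hag1 and was not called by edgeR in any comparison. MYB56, known as BRAVO, which restrains division of the quiescent centre, had 90, 140, 234 and 68 in Col against 143, 143, 68 and 192 in hag1, with no call (edgeR log2 change on CIM 0.16, SE 0.67, adjusted p = 0.875). RAX3, of axillary meristems, had 139, 220, 79 and 84 in Col against 197, 315, 89 and 42 in hag1. RAX2, its relative outside the set, had 269, 143, 164 and 234 in Col against 258, 136, 172 and 65 in hag1 (edgeR log2 change on CIM -1.06, SE 0.51, adjusted p = 0.170). LOF1 and LOF2, of boundaries between lateral organs, had at most 1 and 11 reads in a library. MYB88, which acts in the stomatal lineage and in root gravitropism (AT2G02820, chromosome 2, 804174 to 807208), had 322, 301, 172 and 101 unique reads in Col against 264, 165, 82 and 81 in hag1. It was lower after 2 weeks on SIM than in roots (-1.68, SE 0.22, edgeR adjusted p = 0.00874), a call kept without any 1 library.

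MYB87 of the same list had 6, 340, 242 and 172 reads in Col against 23, 123, 15 and 75 in hag1. The log2 change on CIM was 3.45 (SE 1.13, edgeR adjusted p = 0.0698), not called by edgeR, while the DESeq2 Wald test called it (adjusted p = 0.00573).

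Among 17 genes of stress and nutrient responses, 14 were tested, and 3 rose and 1 fell on CIM. MYB13 and MYB14, relatives within subgroup 2, were higher after 2 weeks on SIM than in roots. MYB14, known from cold responses (AT2G31180, chromosome 2, 13286721 to 13288176), had 35, 181, 170 and 483 reads in Col against 51, 112, 492 and 1145 in hag1. The 2-week libraries were 13.6-fold above roots in Col (interval 9.61 to 19.7) and 23.2-fold in hag1 (17.5 to 31.3), 4.17 on the log2 scale (SE 0.60, edgeR adjusted p = 0.0106) that was lost without either root library (up to 0.0632). MYB13 (AT1G06180, chromosome 1, 1889408 to 1891158) had 160, 488, 270 and 584 in Col against 158, 362, 348 and 385 in hag1. It rose on CIM (1.26, SE 0.30, edgeR adjusted p = 0.0294) and was above roots at 2 weeks (1.61, SE 0.30, edgeR adjusted p = 0.0182), the first lost without any library of roots or CIM (up to 0.146) and the second without either root library or the Col 2-week library (up to 0.0934).

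Their relative MYB15, a defence and cold factor, had 36, 24, 17 and 6 unique reads in Col against 37, 37, 7 and 10 in hag1. Unlike MYB13 and MYB14 it was lower after 2 weeks on SIM than in roots (-2.17, SE 0.51, edgeR adjusted p = 0.0323), lost without any library of these stages (up to 0.159). MYB109 (AT3G55730, chromosome 3, 20681904 to 20684053) had 158, 507, 343 and 134 in Col against 163, 427, 250 and 158 in hag1. It rose on CIM (1.39, SE 0.19, edgeR adjusted p = 0.00631, kept without any 1 library) and fell between 2 days and 2 weeks on SIM (-0.80, SE 0.19, edgeR adjusted p = 0.0498, lost without each library in turn, up to 0.271). MYB25, its relative, had 5 to 38 reads and fell over the same SIM step (-1.93, SE 0.40, edgeR adjusted p = 0.0361), lost without any library but those of roots (up to 0.228).

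MYB59, which acts in root growth and potassium and nitrate transport (AT5G59780, chromosome 5, 24082197 to 24083431), had 103, 14, 11 and 57 unique reads in Col against 73, 10, 1 and 73 in hag1. Its libraries of CIM and of 2 days on SIM were low, those of roots and 2 weeks high. It fell on CIM (-3.01, SE 0.60, edgeR adjusted p = 0.0178) and rose between 2 days and 2 weeks on SIM (3.75, SE 0.66, edgeR adjusted p = 0.0260). Each call was lost without any library of the stages compared (up to 0.117 and 0.0717). MYB2, a drought factor, had 54, 278, 113 and 12 in Col against 42, 129, 7 and 23 in hag1, and MYB72 and MYB10, of the iron deficiency response, had at most 2 and 33 reads.

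The remaining lists and the genes in no list gave no call in the edgeR test of stages. In the GAMYB list MYB65 and MYB33, which are targets of the microRNA miR159, had 48 to 85 and 25 to 49 reads in the libraries. Their edgeR log2 changes on CIM were -0.21 (SE 0.29, adjusted p = 0.617) and 0.29 (SE 0.34, adjusted p = 0.542). MYB101, MYB104, MYB97 and MYB120, of pollen tubes and relatives, had at most 1, 1, 10 and 32 reads. The genes of flowers, gametophytes and seeds had at most 5 reads in a library. MYB11, an activator of flavonol synthesis, had at most 47 reads and was not tested, and MYB122, of indole glucosinolate synthesis, had 76, 84, 14 and 6 in Col against 19, 35, 50 and 14 in hag1. Of the 11 genes in no list 4 were tested, MYB67, MYB305, MYB45 and MYB79, with no edgeR call. MYB305 had 149, 159, 81 and 310 reads in Col against 86, 12, 8 and 147 in hag1, and its difference between 2 days and 2 weeks on SIM (3.07, SE 0.75, edgeR adjusted p = 0.0537) was called by the DESeq2 Wald test (0.000358) and by edgeR with no low-count filter (0.0435). MYB79 had 2, 105, 1 and 16 reads in Col against 12, 44, 10 and 1 in hag1 (edgeR log2 change on CIM 3.17, SE 1.23, adjusted p = 0.106).

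The comparison of hag1 with Col over all stages asked whether loss of HAG1 shifted these genes. None of the 58 tested MYB genes was called (edgeR), beside 0.238% of all genes higher and 0.184% lower in hag1. In this test a hag1 difference that changes by stage counts as spread and widens the SE. At an unadjusted p under 0.05, 2 were higher and 12 lower, beside 8.07% and 12.2% of all genes, and the median log2 difference of hag1 minus Col was -0.23, against 0.00 over all genes. The test of whether the hag1 difference in explants departs from that in roots also gave no call, here or among all 16825 genes (0%), with 3 higher and 1 lower MYB genes at an unadjusted p under 0.05, beside 3.13% and 5.47% of all genes.

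MYB70, the remaining member of subgroup 22 (AT2G23290, chromosome 2, 9904787 to 9905920), came nearest. From roots to 2 weeks on SIM its reads were 127, 190, 175 and 155 in Col against 73, 78, 60 and 56 in hag1. Each hag1 library was below all 4 Col libraries, and the share of all genes that separate in this way was not counted. The log2 difference was -1.22 (SE 0.17, edgeR adjusted p = 0.0561), which crossed the threshold with no low-count filter (0.0412, beside 0.864% of all genes) and in the DESeq2 Wald test (4.71e-05). The Wald test also called MYB305, MYB95 and MYB6 lower and MYB63 higher in hag1 (adjusted p = 0.00296, 0.0399, 0.0422 and 0.0171), beside 7.27% of all genes called by it in either direction. For these 4 edgeR gave -1.95, -1.75, -1.11 and 0.64 (SE 0.52, 0.41, 0.34 and 0.12) with adjusted p of 0.136, 0.114, 0.162 and 0.0873.

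Of the 58 genes, 10 (17.2%) were lower in hag1 at all 4 stages, beside 15.9% of all genes, namely MYB3, MYB305, MYB31, MYB39, MYB58, MYB70, MYB73, MYB88, MYB95 and WER. MYB4 and MYB63, 3.45% of the 58, were higher at all 4, beside 14.4% of all genes.

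Within a stage the comparison rests on 2 libraries and has no replicate check. A gene entered with 50 or more reads in 1 of the pair, and a ratio of at least 2-fold was counted. In roots 8 of 44 MYB genes (18.2%) were lower and 2 (4.55%) higher in hag1, beside 8.07% and 4.17% of all genes. On CIM 7 of 42 (16.7%) were lower and 2 (4.76%) higher, beside 7.55% and 5.08%. After 2 days on SIM 12 of 40 (30%) were lower and 4 (10%) higher, beside 9.51% and 5.53%. After 2 weeks on SIM 13 of 33 (39.4%) were lower and 3 (9.09%) higher, beside 11.6% and 2.60%. With 20 reads as the minimum, 4 of 57 genes in roots were higher, beside 5.44% of all genes, 4 of 55 on CIM were higher and 11 lower, beside 6.01% and 9.41%, and 24 of 50 after 2 weeks on SIM were lower, beside 14.6%. The median log2 ratios of hag1 to Col were -0.36, -0.12, -0.18 and -0.54 in that order, against -0.07, 0.02, 0.00 and 0.04 over all genes with as many reads.

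In roots the genes furthest below Col were MYB95, with 8 reads in hag1 and 66 in Col (log2 ratio -3.12, 95% interval -4.39 to -2.06), MYB122 (-2.08), MYB39 (-1.63), MYB86 (-1.58), MYB6 (-1.54) and MYB61 (-1.40). MYB94 and MYB45 were above Col, at 1.84 (1.34 to 2.36) and 1.20 (0.71 to 1.70). MYB95 overlaps a protein-coding gene on the other strand. The summed root markers were also lower in hag1 roots, at 301 against 654 RPKM, and their part in these ratios was not tested.

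On CIM MYB305 had 12 reads in hag1 and 159 in Col (-3.62, interval -4.60 to -2.77) and MYB31 had 13 and 119 (-3.08, interval -4.04 to -2.26). MYB112, a regulator of anthocyanins under salt, MYB87, MYB70 and MYB122 followed at -1.65, -1.36, -1.17 and -1.15. MYB92 and MYB52 were above Col at 1.50 (0.94 to 2.09) and 1.14 (0.72 to 1.58).

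After 2 days on SIM MYB87 had 15 reads in hag1 and 242 in Col (-3.82, interval -4.68 to -3.07), and MYB2 had 7 and 113 (-3.82, interval -5.17 to -2.73). MYB305 (8 and 81 reads) was at -3.15, MYB96 (10 and 91) at -2.99, MYB62 (23 and 85) at -1.69 and MYB112 (45 and 164) at -1.67. MYB73 was at -1.60, on 571 and 1972 reads (interval -1.73 to -1.46). MYB122, MYB45, MYB14 and MYB50 were above Col, at 2.03, 1.98, 1.73 and 1.19. For MYB14 this rested on 492 and 170 reads (interval 1.47 to 1.99).

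After 2 weeks on SIM MYB93 had 61 reads in hag1 and 313 in Col (-2.37, interval -2.79 to -1.97), MYB67 had 23 and 108 (-2.24), MYB43 had 22 and 100 (-2.19) and MYB107 had 28 and 98 (-1.82). MYB6 and MYB70 were at -1.64 and -1.48. MYB56, MYB32 and MYB14 were above Col, at 1.49 (1.08 to 1.91), 1.39 (0.91 to 1.89) and 1.24 (1.08 to 1.39). In the suberin list 4 genes, MYB93, MYB107, MYB53 and MYB49, were at least 2-fold lower here, beside 11.6% of all genes and 39.4% of the MYB genes. MYB92, the other gene of that list with 50 or more reads, was at -0.51. Green shoot and root markers were lower in hag1 at this stage as well (400 against 906 and 10.3 against 70.8 summed RPKM), and their part in these ratios was not tested.

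**Figure D4:**
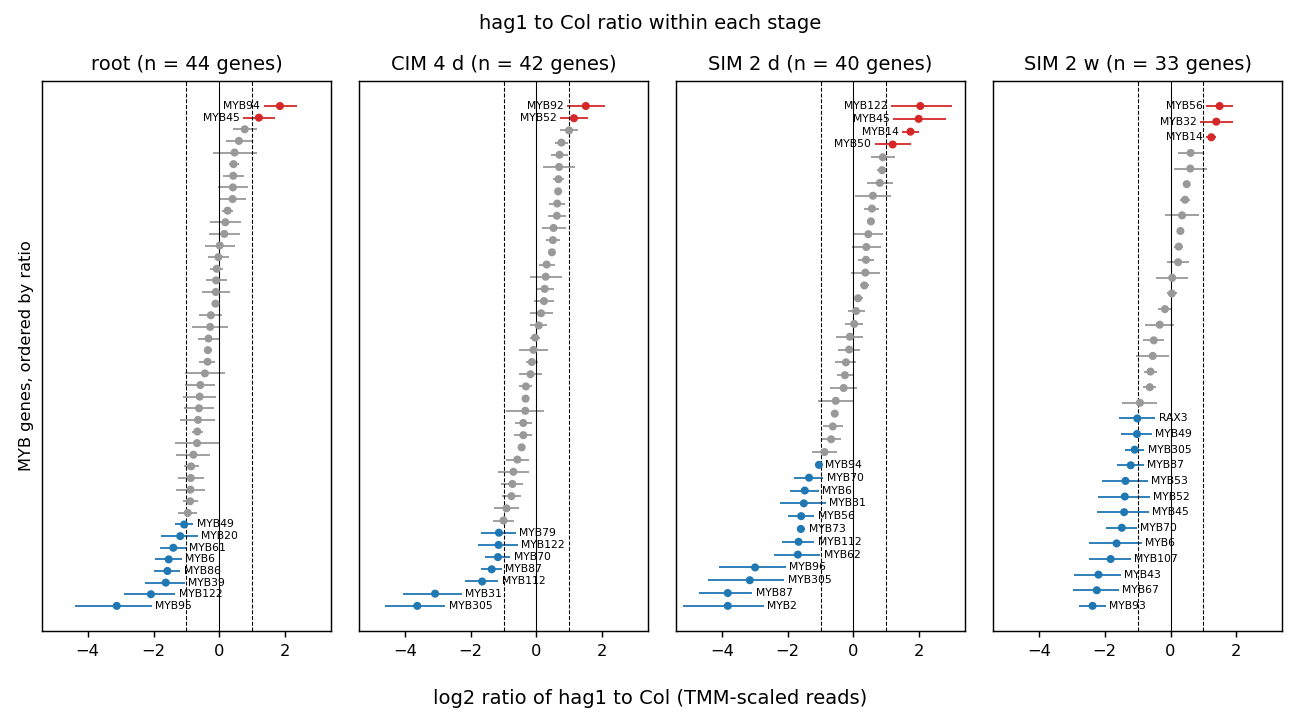
Log2 ratio of hag1 to Col reads after TMM scaling (horizontal axis) for each MYB gene with 50 or more reads in 1 library of a stage (rows, ordered by ratio, 1 panel per stage), with bars for the exact 95% interval of the counts. Blue genes were at least 2-fold lower and red genes at least 2-fold higher in hag1, beyond the dashed lines. Blue genes number 8, 7, 12 and 13 and red genes 2, 2, 4 and 3 from roots to 2 weeks on SIM.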

How the data were processed

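Each of the 8 libraries came with 1 file. Per the file headers, the deposited files give, for each transcript model, the count of unique reads, the RPKM made from it by the authors, and coverage as a percent of the model. RPKM equalled the count divided by model length and library reads (relative error at most 1e-14). Submitters' processing notes name TAIR10; for the aligner, the counter and use of strand, nothing is given in the sources used here.

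Counts were summed per locus, scaled with TMM and filtered with filterByExpr grouped by genotype (16825 genes). The edgeR 4.0.16 quasi-likelihood test (R 4.3.3) used stage and genotype as terms with 3 residual degrees of freedom, stages or genotypes standing in for replicates (biological coefficient of variation 0.258), with Benjamini-Hochberg adjustment over all genes at 0.05. An added term for hag1 in explants left 2. SE is the log2 change divided by the square root of the test's F. The tests were checked on counts simulated from the terms of each fit, with the same dispersion for all genes. That check cannot cover effects outside those terms. Within a stage, TMM-scaled ratios carry exact 95% Clopper-Pearson intervals. Alternatives used DESeq2 1.42.0 and limma 3.58.1 on log2(RPKM + 1) and log2(RPKM + 0.1).

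The members and lists were chosen with earlier results of these data known. Genes named are all those called, the list members with most reads, up to 6 per direction and stage by ratio, and some named in advance by role.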

Additional observations from a re-analysis of the deposited data

Results flagged for a closer look

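For 5 genes the hag1 to Col ratio was at least 2-fold higher at one stage and at least 2-fold lower at another, each on 2 libraries. The difference between the stages was not tested for any of them. MYB122 had log2 ratios of 2.03 after 2 days on SIM and -2.08 in roots, a difference of 4.11. MYB45 had 1.98 after 2 days and -1.41 after 2 weeks on SIM, a difference of 3.39. MYB56 had 1.49 after 2 weeks and -1.59 after 2 days on SIM, a difference of 3.08. MYB94 had 1.84 in roots and -1.05 after 2 days on SIM, a difference of 2.89. MYB52 had 1.14 on CIM and -1.39 after 2 weeks on SIM, a difference of 2.53.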

How the results depend on the processing

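No called result changed its direction in any setting run. Of the 39 calls on single genes, 25 held under all settings that kept the 8 libraries and 9 under every setting. DESeq2 size factors and the DESeq2 Wald test kept all 39, total counts lost 2, limma on log2(RPKM + 0.1) lost 8 and a fit with no genotype term lost 13. The genotype effect gave 1 called MYB gene with no low-count filter (0.864% of all genes) and 5 with the DESeq2 Wald test (7.27%), and the step from CIM to 2 days on SIM gave 2 with the latter (3.11%). Between 2 days and 2 weeks on SIM the Wald test called 17 of 58 (18.1% of all genes) and the fit with no genotype term 3 (6.04%), against 10. With 20 reads as the minimum, 4 of 57 genes were at least 2-fold higher in hag1 in roots (5.44% of all genes), 4 of 55 higher and 11 lower on CIM (6.01% and 9.41%), and 24 of 50 lower after 2 weeks on SIM (14.6%). The median of the GAMYB list between 2 days and 2 weeks on SIM was 0.22 with total counts, against 0.43.

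Leaving out 1 library gave 6 to 17 calls on CIM against roots, 0 to 9 between 2 days and 2 weeks on SIM, 8 to 16 between roots and 2 weeks, and 0 for genotype, also without both libraries of any stage. In these fits a stage with 1 library is assumed to vary like the others, and the hag1 effect in explants could not be fitted without a root library. A filter that follows the stages, chosen after seeing the data, admits genes through the libraries where they are high, so its further calls are not used. The stage term already pairs the hag1 and Col libraries of a stage in the genotype test. The labels carry no replicate numbers, so no further pairing was possible. Depth left genes under 50 reads in both libraries of a stage without a ratio.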
